A study of Mus musculus with 8 samples.

Results

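The genes described here encode the motile cilium of airway cells and the factors that switch it on. The list has 45 genes, given by name. No measured value is part of its rule, but it was drawn up with earlier results of these data known. All 45 were found in the deposited table, 43 of them by the name itself and 2, Dnai1 and Dnai2, under the older symbols Dnaic1 and Dnaic2. Of the 45, 43 had a mean of at least 1 FPKM (fragments normalised to feature length and to library depth) over the 8 libraries and were tested, among 14418 genes tested in all. Dnah1 lay just inside that limit, with a mean of 1.00 FPKM. Dnah7b, at 0.65 FPKM, and Mcidas, at 0.212 FPKM, lay outside it.

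The 8 mouse RNA sequencing libraries fall into 2 groups of 4, titled high dose and model. The series concerns mice with a model of idiopathic pulmonary fibrosis, a scarring lung disease, and Platycodin D, a saponin from Platycodon root. The sources used here give neither the dose nor the way fibrosis was induced, nor the strain, age and sex of the mice, and an untreated group was not analysed here. Each library is labelled both as lung tissue and as MLF, a mouse lung fibroblast line. Foxj1, which fibroblasts are not known for, was measured in every library at 20.3 FPKM or more, and the club cell product Scgb1a1 at 9454 FPKM or more. The library codes are QM for high dose and QH for model. Those initials would fit the opposite titles, and with exchanged titles each direction below would be the opposite. The labels do not state whether each library is 1 animal. The p-values therefore measure only the spread between libraries, which may be technical.

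Multiciliated cells line the conducting airways beside secretory cells and carry many motile cilia, whose beat moves mucus out of the lung. Each cilium holds an axoneme, a ring of doublet microtubules around a central pair, on which dynein arms pull. Multicilin (Mcidas) starts the programme, Foxj1 and the RFX factors switch on the axonemal genes, and cyclin O (Ccno) is needed to make the many basal bodies. In a library of whole lung the level of these genes follows how much airway the piece of tissue held as well as how active each cell was. In such bulk samples fewer ciliated cells and less RNA per cell cannot be told apart.

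RFX factors bind the X-box, a pair of inverted arms around a short spacer. Promoters were read from RefSeq (build GRCm38.p6) as the 250 bases before and 50 bases after each start, on both strands. The table held promoters for 39 of the 45 genes, 44 promoters in all, and none for Foxj1, Dnah3, Rsph1, Rsph4a, Cfap53 and Tppp3. The single arm GTTGCCA was present in 10 of the 44 promoters (22.7%) and in 4.38% of all 32851 promoters. An exact form of the X-box, GTTNCC and GGNAAC with 2 bases of any kind between them, was in 0 of the 44 and in 0.451% of all promoters. X-boxes that differ from it at a base, or with another spacer, were not searched for. In the Cfap44 and Hydin sequences below, for example, GTTGCT and a base precede the capitals. The forkhead core TGTTTAC was in 3 (6.82%) and in 3.65%. An X-box can contain the single arm, so these patterns can overlap. A match is a description of letters, not of a bound site. The arms lying before the start are shown because the arm is the sequence feature that most members with a match share, with the motif or its reverse complement TGGCAAC in capitals and each sequence read along its gene. In Dnah10 and Zmynd10 the arm lay after the start, and Cfap44 had a second arm further upstream.
Ccno, chr13:112987563-112987609, plus strand: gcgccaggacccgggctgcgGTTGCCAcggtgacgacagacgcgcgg
Cfap44, chr16:44394759-44394798, plus strand: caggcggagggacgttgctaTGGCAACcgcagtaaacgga
Dnah7b, chr1:46066670-46066716, plus strand: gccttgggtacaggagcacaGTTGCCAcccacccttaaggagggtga
Drc1, chr5:30281361-30281392, plus strand: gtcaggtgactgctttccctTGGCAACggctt
Hydin, chr8:110266943-110266976, plus strand: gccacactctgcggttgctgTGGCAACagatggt
Mcidas, chr13:112993653-112993699, plus strand: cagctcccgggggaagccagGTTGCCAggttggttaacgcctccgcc
Sntn, chr14:13670790-13670836, plus strand: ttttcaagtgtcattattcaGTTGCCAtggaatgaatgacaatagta
Tekt1, chr11:72361883-72361917, minus strand: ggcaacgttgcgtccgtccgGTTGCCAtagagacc

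Only FPKM was deposited, and the depth of a library in reads is therefore unknown. Ratios among rows of low FPKM placed relative depth between 1.00 and 1.34. That estimate is weak, since only 2.37% to 3.82% of 2906 such rows lay at the ratio taken for a library. The FPKM sum of a library was 845852 to 1249864, and the single highest row, which has no gene name, took 6.17% to 41.5% of it, most in high dose replicate 2 and least in model replicate 4. Model replicate 4 also stood apart in basal cell markers, which summed to 220.4 FPKM there and to 6.45 to 17.8 FPKM in the other 3 model libraries.

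No motile cilium gene passed the test between high dose and model. Of the 43 tested, 0 were higher and 0 lower at an adjusted p under 0.05 (limma, Benjamini-Hochberg over all 14418 genes), whereas 10.1% of all tested genes were called, 5.86% higher and 4.27% lower. In 1 of the 43 the unadjusted p was under 0.05, against 25.6% of all tested genes, and in 0 of the 43 were the 4 and 4 libraries without overlap, against 17.7% of all tested genes. On the log2(FPKM + 1) scale the median log2 fold change of high dose over model was 0.11 over the 43 and 0.04 over all tested genes. Values ran from -0.20 in Cfap43 to 0.69 in Cfap52, with 33 above 0 and 10 below. The 95% confidence interval included 0 in 42 of the 43, and in 40 it lay within a log2 change of 1 in either direction. The exceptions to this bound were Dynlrb2, Cfap52 and Tmem212, with upper bounds of 1.01, 1.27 and 1.12. A missed threshold does not show that the groups are alike, and these intervals bound the difference only on the log2(FPKM + 1) scale. Adding 1 FPKM shrinks the changes of genes of low FPKM, so for those the bound on FPKM itself is wider.

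**Figure D1:**
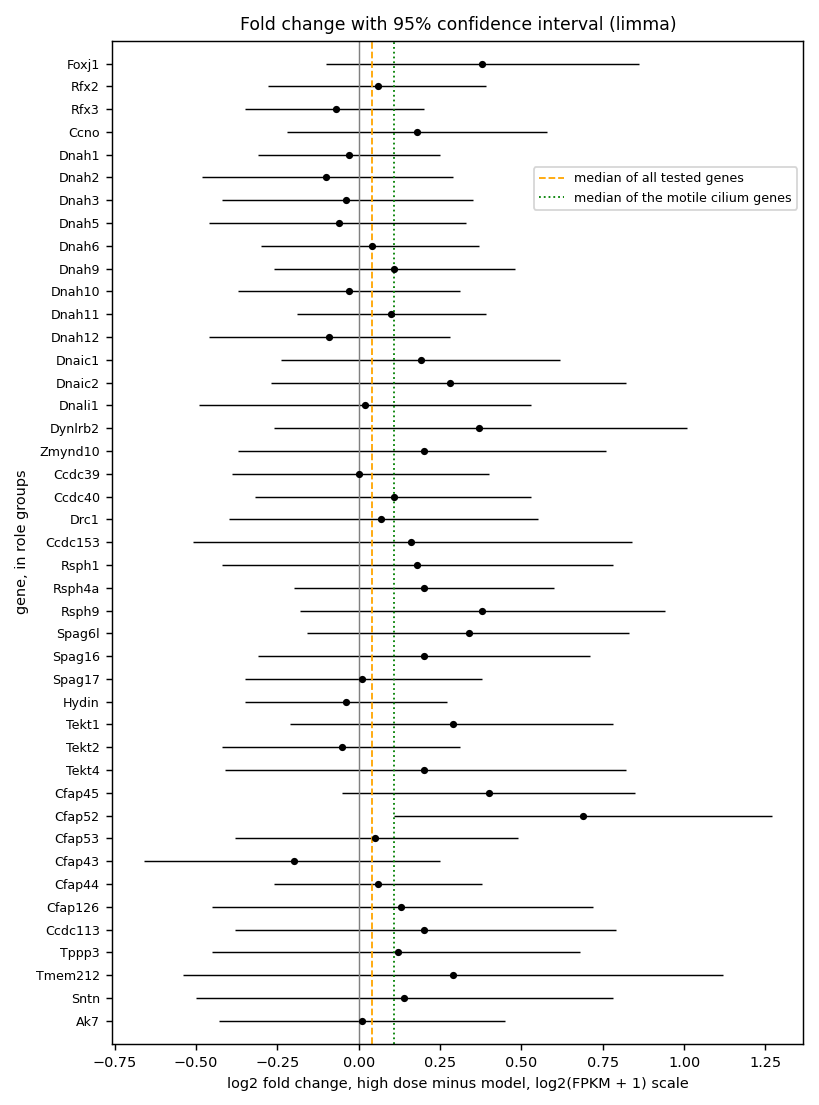
Log2 fold change of the 43 motile cilium genes, high dose minus model, in log2(FPKM + 1), with the 95% confidence interval from limma as bars. The intervals include 0 in all but Cfap52, and the dotted line at 0.11 marks the median of the 43 beside the dashed line at 0.04 for all tested genes.

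Differences between libraries of 1 group were larger than those between the groups. The summed level of the 43 genes was 492, 880.0, 614 and 855 FPKM in high dose replicates 1 to 4, against 688, 873, 503 and 463 FPKM in model replicates 1 to 4. High dose averaged 710.3 ± 188 FPKM and model 632 ± 188 FPKM (SD, n = 4 each), a ratio of 1.12. The highest library exceeded the lowest by 1.79 times within high dose and by 1.88 times within model. The groups overlap over nearly their whole range, with high dose replicates 2 and 4 and model replicate 2 at the top and model replicates 3 and 4 and high dose replicate 1 at the bottom. Tppp3 alone gave 35.4% to 41.6% of the sum. Without it the ratio of group means was 1.15, and the highest and lowest library of each group were those named here. The FPKM sum over all rows had the same libraries at its top, at 1031923 to 1249864, and at its bottom, at 845852 to 920684. Scaled to the sum over named rows, the 43 genes still summed to 526 to 858 FPKM in high dose and 465 to 828 FPKM in model. The part of the FPKM sum in the order of the libraries was not tested.

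**Figure D2:**
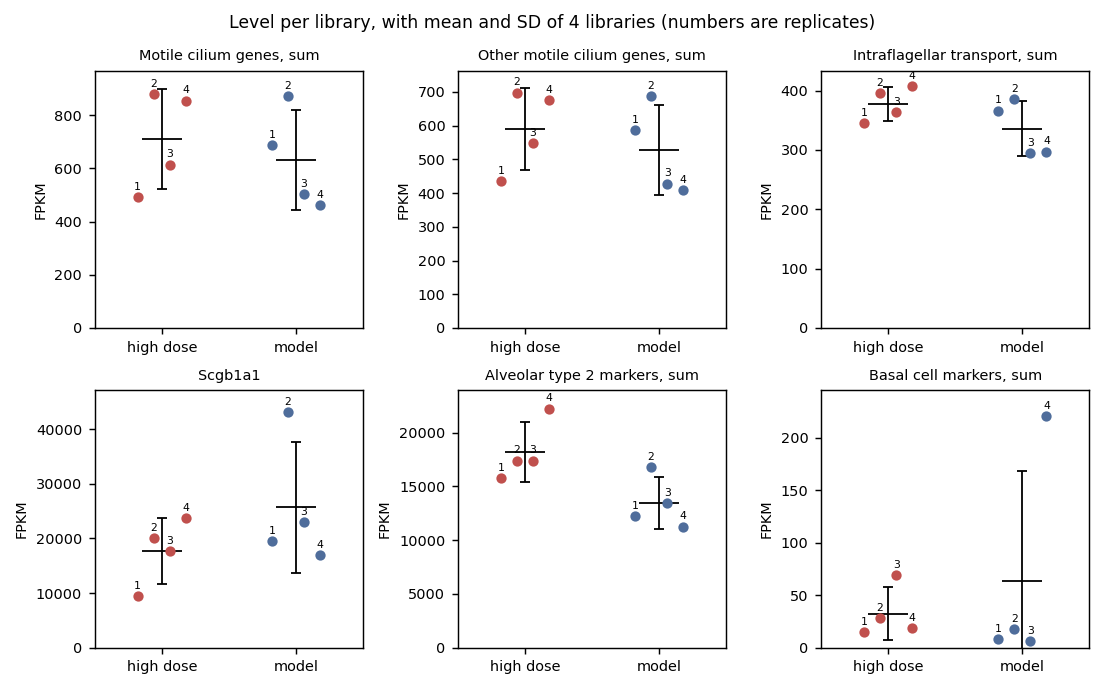
FPKM per library, high dose left of model, for the summed motile cilium genes, the other lists and Scgb1a1. Points are libraries numbered by replicate and bars are mean and SD of 4 libraries, with the lower bar of the basal cell panel running past the axis at 0. The summed cilium genes span 492 to 880.0 FPKM in high dose and 463 to 873 FPKM in model.

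Most members shared this library order. High dose replicate 2 lay above a gene's own mean in 41 of 43 genes, model replicate 2 in 40, high dose replicate 4 in 37 and model replicate 1 in 34. Model replicate 4 lay below it in 42 of 43 genes, model replicate 3 in 40 and high dose replicate 1 in 38. High dose replicate 3 was in between, above in 17 and below in 25. Model replicate 4 was the lowest of the 8 libraries in 31 of the 43 genes. Within the model group, replicate 2 exceeded replicate 4 in 42 of 43 genes, against 53.7% of all tested genes, with a median log2 difference of 0.66 against 0.03. Within the high dose group, replicate 2 exceeded replicate 1 in 40 of 43 genes, against 45% of all tested genes, with a median of 0.60 against -0.03.

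**Figure D3:**
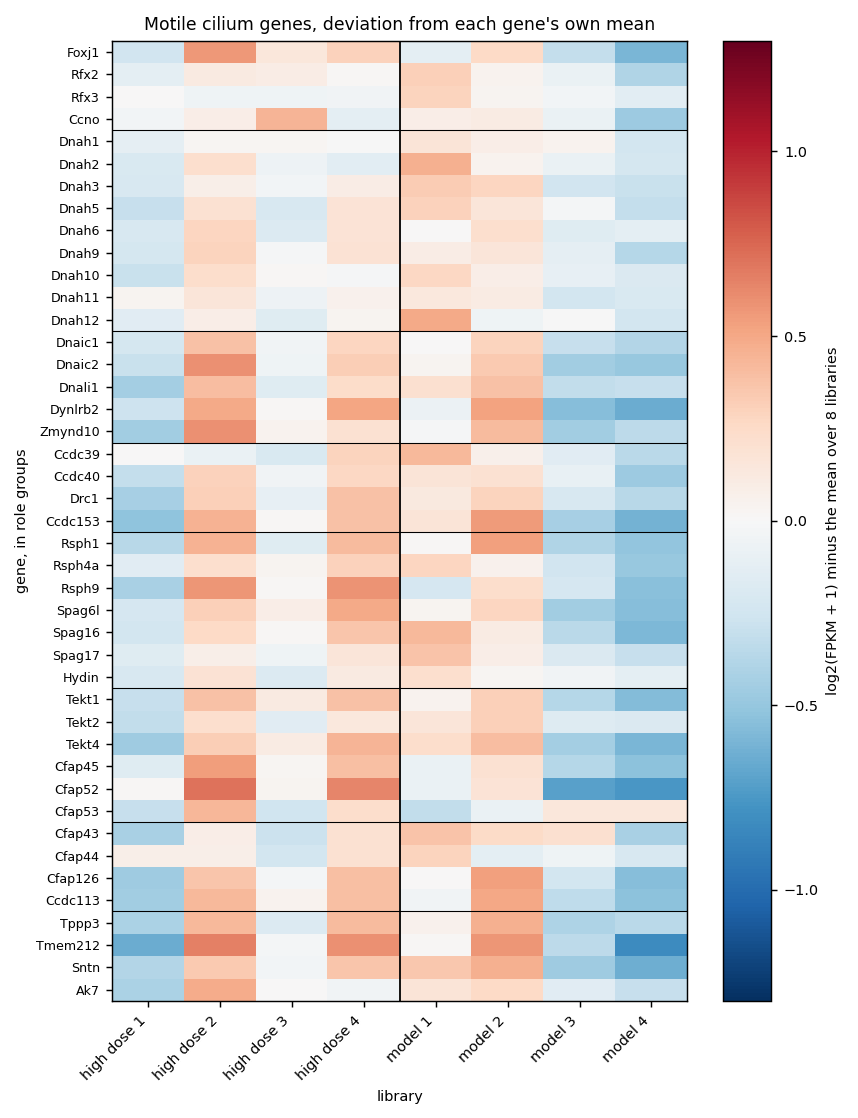
Deviation of each motile cilium gene from its own mean over 8 libraries, in log2(FPKM + 1), with high dose libraries left of the black line and model libraries right of it. Lines across separate the role groups. High dose replicates 2 and 4 and model replicate 2 are mostly red and model replicates 3 and 4 and high dose replicate 1 mostly blue, with Cfap53 and Rfx3 among the exceptions.

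The agreement was counted over the 12 pairs of libraries that lie within a group, so that the comparison of the groups did not enter. A gene was set against the mean log2(FPKM + 1) of the other members. The median member had 11 of 12 pairs in the same order, and the median of all tested genes was 6. At least 10 pairs were in order in 36 of the 43 members (83.7%) and in 11.1% of all tested genes. All 12 pairs were in order in 12 members, among them Foxj1, Dnah9, Dnaic1, Ccdc153, Rsph1 and Cfap52. The lowest counts were 6 in Rfx3, 7 in Cfap53 and Cfap44, and 8 in Ccdc39. The spread within groups, as a median SD of log2(FPKM + 1), was 0.32 for the members and 0.18 for all tested genes. Once the mean of the members was subtracted in each library it was 0.16, smaller in 37 of the 43 members and larger in 6. These are descriptions of 8 libraries, and the points share library and depth.

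Among the regulators, Foxj1, the forkhead factor that switches on the motile cilium programme, was the most abundant. Foxj1 had 25.9, 46.1, 34.5 and 38.3 FPKM in high dose replicates 1 to 4, against 28.3, 37.4, 24.9 and 20.3 FPKM in model replicates 1 to 4. The groups overlapped, with high dose replicates 2 and 4 above the highest model library and model replicates 3 and 4 below the lowest high dose library. Foxj1 averaged 36.2 ± 8.4 FPKM in high dose and 27.7 ± 7.21 FPKM in model (SD, n = 4 each). Its log2 fold change was 0.38 ± 0.21 (SE, as for all fold changes below, limma adjusted p = 0.306). Rfx2, an RFX factor, had 4.85, 5.99, 5.87 and 5.51 FPKM in high dose, against 6.97, 5.65, 5.02 and 3.90 FPKM in model, and the high dose libraries lay inside the model range. Rfx3, an RFX factor used in many ciliated tissues, had 1.37, 1.25, 1.26 and 1.28 FPKM in high dose, against 1.88, 1.42, 1.28 and 1.13 FPKM in model. Rfx3 departed from the common order mainly in the high dose group, where replicate 1, low for most members, was its highest library. These high dose values differed little, from 1.25 to 1.37 FPKM. In the model group replicates 3 and 4 were its lowest, as for most members. Their log2 fold changes were 0.06 for Rfx2 and -0.07 for Rfx3.

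Ccno, a cyclin of basal body amplification, had 1.20, 1.40, 2.05 and 1.06 FPKM in high dose, against 1.40, 1.44, 1.11 and 0.622 FPKM in model. Its log2 fold change was 0.18 ± 0.18 (limma adjusted p = 0.576). High dose replicate 3 was the highest library for Ccno, which was so for 1 member alone. Mcidas, which starts the programme with E2F partners, was listed at 0.323, 0.1, 0.587 and 0.223 FPKM in high dose, against 0.0355, 0.245, 0.0628 and 0.123 FPKM in model. It was below 1 FPKM in every library and was not tested, and high dose replicate 3 was again the highest. That library stood in the middle for most axonemal genes. Both genes were of low FPKM, Ccno at 0.622 to 2.05 FPKM and Mcidas lower still, so their order of libraries is uncertain.

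The dynein heavy chains are the motor proteins of the axoneme, with Dnah5, Dnah9 and Dnah11 in the outer arms and Dnah1, Dnah2, Dnah3, Dnah6, Dnah7b, Dnah10 and Dnah12 in the inner arms. None of the 9 tested passed, and their log2 fold changes lay between -0.10 and 0.11 with a median of -0.03. Their means over 8 libraries ran from 1.00 FPKM in Dnah1 to 3.89 FPKM in Dnah6. Dnah6 had 3.19, 4.88, 3.28 and 4.50 FPKM in high dose, against 3.87, 4.63, 3.33 and 3.42 FPKM in model. Its groups overlapped and its log2 fold change was 0.04 ± 0.15 (limma adjusted p = 0.910). Dnah5, whose human counterpart is a frequent site of primary ciliary dyskinesia mutations, averaged 2.58 ± 0.638 FPKM in high dose and 2.74 ± 0.663 FPKM in model (SD, n = 4 each). Dnah7b was not tested and had 0.709, 0.870, 0.629 and 0.768 FPKM in high dose, against 0.724, 0.660, 0.482 and 0.358 FPKM in model. It has close copies, Dnah7a at a mean of 0.372 FPKM and Dnah7c at 0.603 FPKM, so how reads were divided among the 3 is uncertain. Dnah12 and Spag17 were each summed over 2 rows.

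Of the smaller dynein subunits and their assembly factor none passed the limma test, and their means over 8 libraries ran from 3.16 FPKM in Dnaic1 to 42.5 FPKM in Dynlrb2. Dynlrb2, a roadblock light chain, had 33.5, 57.2, 41.1 and 58.1 FPKM in high dose, against 38.3, 58.5, 27.4 and 25.6 FPKM in model. High dose replicates 2 and 4 and model replicate 2 stood level at the top. Its log2 fold change was 0.37 ± 0.28 (limma adjusted p = 0.452). The paralog Dynlrb1, which serves dynein in all cells, averaged 125 ± 4.60 FPKM in high dose and 107 ± 7.47 FPKM in model. The Dynlrb1 groups did not overlap, as in 17.7% of all tested genes. Its log2 fold change of 0.23 ± 0.08 did not pass (limma adjusted p = 0.112). Dnaic1 and Dnaic2, outer arm intermediate chains, had log2 fold changes of 0.19 and 0.28. Dnali1, an inner arm light chain, had 0.02, and Zmynd10, which helps to assemble the arms before they enter the cilium, had 0.20.

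Ccdc39 and Ccdc40 form the ruler that sets the repeat along the doublets, and Drc1 and Ccdc153 belong to the nexin-dynein regulatory complex. Ccdc153 had 42.1, 83.8, 61.8 and 79.8 FPKM in high dose, against 68.8, 89.8, 45 and 39.6 FPKM in model. The spread within each group, about that of the common order, exceeded the difference of the means, 66.9 ± 19.1 FPKM in high dose and 60.8 ± 23.1 FPKM in model (SD, n = 4 each). Log2 fold changes in this group were 0.00 for Ccdc39, 0.11 for Ccdc40, 0.07 for Drc1 and 0.16 for Ccdc153. Ccdc39 and Ccdc40 act together, yet Ccdc39 was highest in model replicate 1, at 9.25 FPKM, and Ccdc40 in high dose replicate 2, at 6.85 FPKM.

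Radial spoke heads (Rsph1, Rsph4a, Rsph9) and the central apparatus (Spag6l, Spag16, Spag17, Hydin) regulate the beat. Rsph1 had 20.3, 36.4, 23.6 and 35.4 FPKM in high dose, against 26.7, 38.4, 19.8 and 18.3 FPKM in model. Its groups overlapped over most of their range, and its log2 fold change was 0.18 ± 0.26 (limma adjusted p = 0.732). The 7 genes had a median of 0.20, from -0.04 in Hydin to 0.38 in Rsph9, and none passed. Rsph9 averaged 14.5 ± 4.84 FPKM in high dose and 10.7 ± 2.67 FPKM in model (SD, n = 4 each). Hydin, a very long protein of the central pair, averaged 1.29 ± 0.319 FPKM in high dose and 1.34 ± 0.245 FPKM in model (SD, n = 4 each). Spag6l has a paralog, Spag6, that was listed at a mean of 0.144 FPKM.

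Tektins (Tekt1, Tekt2, Tekt4) and Cfap45, Cfap52 and Cfap53 lie inside the doublet microtubules. Tekt1, the most abundant of the 6, had 6.37, 10.8, 8.87 and 10.8 FPKM in high dose, against 8.39, 10.3, 6.06 and 5.15 FPKM in model, with a log2 fold change of 0.29 ± 0.22 (limma adjusted p = 0.469). It followed the common order in 11 of 12 pairs. Cfap52, a microtubule inner protein, had the highest log2 fold change of all members. It had 6.08, 10.4, 6.2 and 9.81 FPKM in high dose, against 5.58, 6.93, 3.29 and 3.13 FPKM in model. The groups overlapped through model replicate 2 alone, which was above high dose replicates 1 and 3. Cfap52 averaged 8.13 ± 2.31 FPKM in high dose and 4.73 ± 1.85 FPKM in model (SD, n = 4 each), and its log2 fold change of 0.69 ± 0.26 did not pass (limma adjusted p = 0.127). Without model replicate 2 it was 0.87 and passed (adjusted p = 0.0452), the only call among the 43 genes in 18 alternative settings.

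Cfap53, another inner protein that also acts at nodal cilia, departed from the common order. It had 2.83, 5.33, 2.93 and 4.53 FPKM in high dose, against 2.78, 3.41, 4.23 and 4.24 FPKM in model. In the high dose group replicates 2 and 4 were again above 1 and 3, but in the model group replicates 3 and 4, low for other members, were above 1 and 2. In 42 of the 43 genes model replicate 1 exceeded replicates 3 and 4 and model replicate 2 exceeded replicate 4, and Cfap53 was the one exception each time. Cfap53 was singled out after its values were seen.

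Cfap43 and Cfap44 tether an inner dynein arm, Cfap126 (Flattop) places basal bodies, and Ccdc113 is a coiled-coil protein of cilia. Cfap126 had 16, 29.1, 21.9 and 29.7 FPKM in high dose, against 22.4, 32.8, 18.8 and 15.0 FPKM in model, in the common order in 11 of 12 pairs. Cfap43 had the lowest log2 fold change of the 43 genes, -0.20 ± 0.20 (limma adjusted p = 0.578). It had 7.55, 11.2, 8.41 and 12.1 FPKM in high dose, against 13.8, 12.5, 12.2 and 7.54 FPKM in model. Model replicate 4 was as low as high dose replicate 1, and the other 3 model libraries were above each high dose library.

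Tppp3, a tubulin polymerization-promoting protein, was by far the most abundant member. It had 184, 329, 217 and 328 FPKM in high dose, against 256, 338, 186 and 193 FPKM in model, and its log2 fold change was 0.12 ± 0.25 (limma adjusted p = 0.814). High dose and model each spanned nearly the same range. Tmem212, a membrane protein found in ciliated cells, followed the common order in all 12 pairs and ranged from 21.2 to 53.5 FPKM in high dose and from 18.7 to 50.4 FPKM in model. Sntn (sentan), a protein of the cilium tip, had a log2 fold change of 0.14, and Ak7, an adenylate kinase of the axoneme, of 0.01.

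Long and short transcripts of the programme did not order the libraries alike. Members were split after their values were seen by the longest transcript annotated in GENCODE M21, which was found for all 43. Of the 14 with a transcript over 5000 bases, 12 were higher in model replicate 1 than in model replicate 2, and of the 29 shorter ones 4 were. The median log2 difference between these libraries was 0.16 for the long members and -0.27 for the short ones. Over all tested genes with a length, 71.0% of the long and 49.7% of the short were higher in replicate 1, with medians of 0.14 and 0.00. Between the groups the median log2 fold change was -0.03 for the long members and 0.19 for the short ones, and 0.03 and 0.04 for long and short genes among all tested. The dynein heavy chains, Hydin, Spag17, Rfx3, Cfap43 and Cfap44 make up the long members. Most of these are also of low FPKM, with means from 1.00 FPKM in Dnah1 to 10.7 FPKM in Cfap43. Adding 1 FPKM shrinks the size of the fold changes of such genes, but it does not change which library is higher. Length and level were not separated here. The parts of transcript length and of level in the order of the libraries were not tested.

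**Figure D4:**
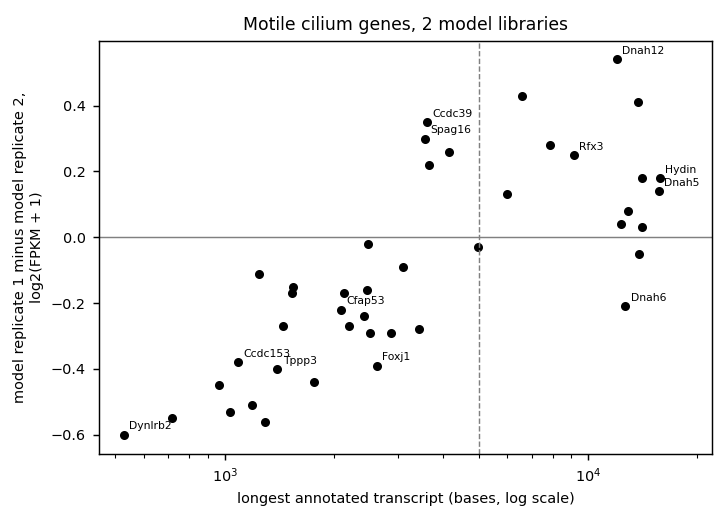
Difference between model replicates 1 and 2 in log2(FPKM + 1) for each of the 43 motile cilium genes (vertical) against its longest annotated transcript in bases on a log scale (horizontal), with a dashed line at 5000 bases. Of the 14 genes right of the line 12 lie above 0, and of the 29 left of it 4 do.

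Further genes of the motile cilium, not among the 45, gave no call either. The 81 tested include dynein assembly factors, docking complex subunits and other axonemal proteins. Of these 0 rose and 0 fell in the limma test, against 5.86% and 4.27% of all tested genes. In 6 of the 81 the unadjusted p was under 0.05, against 25.6% of all tested genes. Their median log2 fold change was 0.14. They summed to 436, 698, 548 and 675 FPKM in high dose, against 587, 687, 428 and 408 FPKM in model, with the same libraries at the top and the bottom as for the members. The 3 with the smallest p were Morn5, Dnaaf5 and Cfap410. Morn5 averaged 3.58 ± 0.954 FPKM in high dose and 1.88 ± 0.931 FPKM in model (SD, n = 4 each), with a log2 fold change of 0.70 ± 0.24 (limma adjusted p = 0.104, and 0.0206 without model replicate 2). Dnaaf5, a dynein arm assembly factor, and Cfap410 had 0.23 and -0.18, and in both the groups did not overlap. That was so in 3 of the 81, against 17.7% of all tested genes.

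Intraflagellar transport and BBSome genes carry cargo in primary cilia of many cell types as well as in motile ones. Of 38 tested, 0 rose and 0 fell in the limma test, against 5.86% and 4.27% of all tested genes. The median log2 fold change of the 38 was 0.18. In 6 of the 38 the unadjusted p was under 0.05, against 25.6% of all tested genes. In 3 the groups did not overlap, against 17.7% of all tested genes. Their sum ranged over 345 to 407 FPKM in high dose and 295 to 385 FPKM in model, a narrower span than that of the motile cilium genes. Dync2li1, a light intermediate chain of the dynein that carries cargo back from the tip, came nearest to the threshold. It had 16.2, 19.3, 17.1 and 22.2 FPKM in high dose, against 14.2, 14.8, 10.7 and 9.0 FPKM in model. Its groups did not overlap, with a log2 fold change of 0.60 ± 0.16 (limma adjusted p = 0.0513). Scaled to the sum over named rows it passed (adjusted p = 0.0402), as it did with a minimum mean of 5 FPKM (0.0470) and without model replicate 2 (0.0236). Wdr35 and Ift27, also of this transport, had 0.35 (adjusted p = 0.0801) and 0.38 (adjusted p = 0.0906). Ift27 passed without high dose replicate 1 (adjusted p = 0.0452) and without model replicate 2 (0.0462).

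Secretory cells stand beside ciliated cells in the same airways, and their products were read beside the cilium genes. Scgb1a1, the main secreted protein of club cells, had 9454, 20127, 17658 and 23740 FPKM in high dose, against 19558, 43169, 23036 and 16962 FPKM in model. High dose replicate 1 was the lowest of the 8 libraries and model replicate 2 the highest, and the groups overlapped. Its log2 fold change was -0.51 ± 0.36 (limma adjusted p = 0.419). Scgb3a1, Scgb3a2 and Muc5b, other secreted products, had -0.52, -0.04 and -0.39 with adjusted p of 0.746, 0.969 and 0.676. Scgb3a1 ranged from 73.2 to 627 FPKM in high dose and from 107 to 739 FPKM in model. Of 15 secretory markers tested, 0 rose and 0 fell (limma), against 5.86% and 4.27% of all tested genes. Of the 15 fold changes 10 lay below 0 and 5 above. The 5 above 0, named after their values were seen, were Bpifa1 at 1.43, Agr2 at 1.17, Reg3g at 0.80, Gabrp at 0.57 and Hp at 0.02. Agr2, which helps to fold mucins, was the 1 marker of 15 with an unadjusted p under 0.05 (limma adjusted p = 0.16), against 25.6% of all tested genes. The median log2 fold change of the 15 was -0.39, but it was -0.05 without model replicate 2, -0.13 without high dose replicate 1, -0.60 without high dose replicate 2 and -0.68 without model replicate 4. The median marker followed the order of the cilium genes in 11 of 12 pairs within groups.

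Basal cells, the stem cells of the large airways, were read from 9 markers, of which 6 were tested. Of these 1 rose and 0 fell, against 5.86% and 4.27% of all tested genes. The one that rose was Snai2, a transcription factor that fibroblasts also express, with 7.61, 8.61, 7.37 and 6.47 FPKM in high dose, against 4.18, 5.56, 4.23 and 4.56 FPKM in model. Its groups did not overlap, as in 17.7% of all tested genes, and its log2 fold change was 0.60 ± 0.12 (limma adjusted p = 0.0153). Krt5, the defining keratin, had 0.742, 2.33, 8.74 and 2.30 FPKM in high dose, against 0.218, 1.58, 0.0619 and 94.2 FPKM in model. Model replicate 4 was thus the highest library for this basal cell keratin and the lowest for most cilium genes. Without that library the median log2 fold change of the 43 cilium genes was 0.00. Of 12 neuroendocrine, tuft and ionocyte markers 4 were tested and 0 passed the limma test, against 10.1% of all tested genes. In 2 of the 4 the unadjusted p was under 0.05, against 25.6% of all tested genes. Of 13 cartilage markers 1 was tested, Chad, which did not pass (limma adjusted p = 0.513).

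Among all tested genes 5.86% were called higher, 4.27% lower, and 25.6% had an unadjusted p under 0.05. Of other lung cell types, alveolar type 2 cells had 8 of 12 markers higher and 0 lower in the high dose libraries (limma), and a median log2 fold change of 0.57. For alveolar type 1 cells 5 of 11 were higher and 0 lower, and the median was 0.51. Their median genes followed the library order of the cilium genes in 7 and 10 of 12 pairs, and endothelial markers in 10. The median was 10 for the transport genes, 8 for smooth muscle markers, and 6 for fibroblast markers, basal cell markers and all tested genes. It was 3 for leukocyte markers, most of which thus ran against the cilium order. Of the 10 endothelial markers 0 passed the limma test and 4 had an unadjusted p under 0.05. Fibroblast markers had 3 of 11 higher, with a median of 0.74, and leukocyte markers 3 of 12 lower, with -0.51. The fold change was below 0 in 1 fibroblast and 2 alveolar type 1 markers, and above 0 in 3 leukocyte markers. Smooth muscle markers had 0 of 9 called in the limma test and 1 with an unadjusted p under 0.05, with a median of 0.19. Cells that use related genes elsewhere were read too: of 11 male germ cell markers 1 and of 6 choroid plexus and ependymal markers 3 reached 1 FPKM, and 1 of them, Nnat, rose by 1.03 on the log2 scale. The part of these cell types in the levels of the cilium genes was not tested.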

How the data were processed

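RNA sequencing was deposited for 8 libraries, 4 titled high dose and 4 titled model, with RNA purified by an Rneasy kit and libraries made with a SMARTER kit, per the labels' protocols. The authors deposited 1 table of FPKM values with 1 column per library, a unit inferred from the values since the header names none. The submitters' processing notes name the build mm39. Which aligner, counter and annotation were used was not given in these sources. Of 48632 rows, 7015 had no gene name and were not used.

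FPKM was summed per gene name, and names with a mean of at least 1 FPKM over 8 libraries were kept. A limma model (3.58.1, in R 4.3.3) was then fitted to log2(FPKM + 1), group as the only term, with trend and robust moderation, two-sided, Benjamini-Hochberg over 14418 genes and a threshold of 0.05. Since the pseudocount is 1, fold changes of genes of low FPKM are understated. The fit was tested on simulated data. Relative depth was read from rows under 0.3 FPKM with a tolerance of 0.015 on the log ratio. Promoters and gene synonyms came from RefSeq (GRCm38.p6) and transcript lengths from GENCODE M21, matched by symbol. Figures used matplotlib 3.10.9 in Python 3.11.15.

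The members and lists were chosen with earlier results of these data known, so lists are given as counts and medians with no test. Values in every library are given for the 5 regulators, the most abundant member of each of 8 role groups, the members with the highest and lowest fold change, and any called member. Outside the members, the called genes of a list or else the 3 with the smallest p, and 5 airway genes, are named. Alternatives were other normalizations, filters, pseudocounts and moderation, the replicate number as a block, the highest row per name, and each library left out. Added after seeing the data were splits by transcript length and lists without Tppp3 or without the 2 older symbols.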

Additional observations from a re-analysis of the deposited data

Results flagged for a closer look

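In 112 groups of 4 libraries, from 56 genes or sums, 2 groups held a library far from the other 3, and chance alone flags about 1 in 20 groups. None of them was a motile cilium gene or their sum. Muc5b, a gel-forming mucin, stood at 7.08 FPKM in high dose replicate 2, against 1.39 to 1.97 FPKM in the other high dose libraries. Krt5, a basal cell keratin, stood at 94.2 FPKM in model replicate 4, against 0.0619 to 1.58 FPKM in the other model libraries.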

How the results depend on the processing

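Under 18 alternative settings 0 motile cilium genes were called lower and 0 higher, except 1, Cfap52, without model replicate 2. The median log2 fold change of the members was 0.07 with quantile normalization, 0.09 with median centring and 0.20 with a minimum mean of 5 FPKM, and 0.00 (without model replicate 4) to 0.23 (without high dose replicate 1) when each library was left out. The median of the other motile cilium genes was then 0.05 to 0.28, of the transport genes 0.09 to 0.25 and of the smooth muscle markers 0.03 to 0.24. The log2 ratio of the summed levels was 0.17, and 0.13 to 0.20 under its alternatives. The log2 fold change changed sign in at least 1 setting in 23 of the 43 genes, in 5 of them in a setting other than a left-out library. Over all genes 845 were higher and 616 lower. Without the filter on low values 518 were higher, and with the replicate block 486 were higher and 469 lower. Leaving out 1 library gave 364 to 1176 higher and 336 to 969 lower, the fewest without model replicate 3 and the most without model replicate 2. The causes were not tested. Deviations of same-numbered libraries correlated at 0.154, 0.276, -0.068 and -0.0923, and those of differently numbered libraries at -0.351 to 0.207. These values show no common pairing by replicate number, but they cannot exclude one. Depth was unknown, so the number of reads behind members of low FPKM, such as Mcidas, is unknown too. Mcidas and Dnah7b lay below the filter of 1 FPKM, so the main fit gave them no interval.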
